A study of Mus musculus with 8 samples.

Results

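Open windows far from the ends of genes are stretches of 500 bp on the autosomes, more than 5 kb from any annotated gene end, in which the GpC methyltransferase had methylated at least 60% of the calls. They were sought separately in control mouse embryonic fibroblasts (MEFs, day 0) and in MEFs on day 1 of reprogramming by Etv2. A window entered when its pooled pair of enzyme-treated libraries had calls at 4 or more sites of at most 100 reads each, where a call is 1 read over 1 cytosine. On day 0, 3694 of 74290 such windows reached 60% (4.97%), and on day 1 it was 5924 of 109948 (5.39%). Over both days 9567 of 176242 windows were open at least once, and 51 were open on both days. The treated levels that chose the windows are given below as descriptions, and tests use the other day, the other replicate, the untreated libraries or the position.

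There were 8 libraries in 4 groups of 2: day 0 MEFs without the enzyme (untreated) and with it (treated), and day 1 MEFs without and with it. MEFs are a mixed primary culture of embryonic connective tissue cells. The labels name neither the strain nor the way in which Etv2 was supplied, nor whether the control cells carried the same construct. Nothing in them tells if paired libraries are independent cultures, and the spread between replicates, on which the p-values rest, may be technical. No expression was measured, so the cell type could not be checked against markers.

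In NOMe-seq, intact nuclei are exposed to M.CviPI, an enzyme that adds methyl groups to cytosines in GpC. Nucleosomes and tightly bound proteins keep it from the DNA, and bisulfite sequencing then reads which cytosines it reached. Mammalian cells methylate mostly CpG, so that GpC methylation outside CpG is low where no enzyme was added. Far from gene ends, open stretches of DNA include enhancers, insulators and internal promoters. Etv2 is an ETS-family transcription factor that starts the endothelial and blood programmes in the embryo, and ETS factors bind DNA around a core of GGAA.

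Some open windows lay on an annotated transcription start inside a gene. The sequences of 4 of these are shown because each had many called sites at a high level in a place where the annotation has a start. The sequences are the 250 bases upstream of the start, read 5′ to 3′ from RefSeq start regions of build GRCm38.p6 (the assembly known as mm10). Capitals mark the GpC dinucleotides that had calls in the window on the day named. Creb5, a bZIP transcription factor, had its window open on day 0 (chr6:53573124-53573373, plus strand). Bcar1, an adaptor protein of focal adhesions also known as p130Cas, had its window open on day 0 (chr8:111732137-111732386, minus strand). Nktr, a large cyclophilin-related protein, had its window open on day 1 (chr9:121718931-121719180, plus strand). Kdm2b, a histone demethylase that binds unmethylated CpG, had its window open on both days, with the day 1 calls marked (chr5:122900351-122900600, minus strand).
Creb5: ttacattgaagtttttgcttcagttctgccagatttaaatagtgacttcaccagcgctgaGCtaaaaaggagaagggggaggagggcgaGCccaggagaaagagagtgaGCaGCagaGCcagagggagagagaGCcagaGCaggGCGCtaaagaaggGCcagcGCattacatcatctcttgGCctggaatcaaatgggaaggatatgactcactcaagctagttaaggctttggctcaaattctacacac
Bcar1: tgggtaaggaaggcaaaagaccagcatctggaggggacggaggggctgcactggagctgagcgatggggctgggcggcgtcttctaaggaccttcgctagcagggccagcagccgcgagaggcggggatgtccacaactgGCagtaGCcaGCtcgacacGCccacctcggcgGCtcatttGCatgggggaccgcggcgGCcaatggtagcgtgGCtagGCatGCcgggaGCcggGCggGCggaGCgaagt
Nktr: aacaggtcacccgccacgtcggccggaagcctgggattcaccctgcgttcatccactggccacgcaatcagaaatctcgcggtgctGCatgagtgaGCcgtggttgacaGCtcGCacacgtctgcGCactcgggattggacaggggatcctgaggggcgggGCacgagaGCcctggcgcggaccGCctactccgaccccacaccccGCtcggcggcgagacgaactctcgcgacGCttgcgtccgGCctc
Kdm2b: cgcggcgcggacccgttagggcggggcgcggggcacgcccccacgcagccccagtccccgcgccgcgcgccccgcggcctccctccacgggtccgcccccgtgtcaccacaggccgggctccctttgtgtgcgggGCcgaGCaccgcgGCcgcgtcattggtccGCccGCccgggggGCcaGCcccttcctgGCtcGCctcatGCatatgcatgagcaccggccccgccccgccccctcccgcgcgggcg
The Creb5 stretch held 4 CpG and 1 or more matches to TGANTCA, the pattern bound by AP-1 factors. The other 3 were rich in CpG, with 21 in the Bcar1 stretch, 29 in the Nktr stretch and 38 in the Kdm2b stretch. The Nktr stretch held CCGGAA, a form of the ETS core, on at least 1 strand.

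Calls in these 4 places were nearly all methylated. The Creb5 window had 89.1% of 64 calls methylated at 17 sites, all from day 0 replicate 2. The Bcar1 window had 95.8% of 48 calls at 16 sites, all from day 0 replicate 1, and 0% of 22 calls in an untreated day 0 library. Neither had any treated call on day 1, so whether they changed cannot be seen. The Nktr window had 92.7% of 55 calls at 14 sites in day 1 replicate 1. On day 0 it had 6 calls at 2 sites, 33.3% of them methylated. The Kdm2b window had 83.3% of 12 calls on day 0 (replicate 1) and 86.7% of 30 calls on day 1 (replicate 2), and was thus high in 1 library of each day.

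Coverage was thin, and it set how much could be read from a single window. The treated libraries held between 816453 and 1188536 calls in the windows far from gene ends, and the untreated ones between 223438 and 394066. These windows had to have treated sites, so the 2 ranges do not compare the depth of the libraries. Over all autosomes the treated libraries held between 2084341 and 2872259 calls, and the untreated ones between 1662775 and 3527984. The files list only sites of 3 or more reads, and the median open window had 5 sites, 15 calls and 3 reads per site on either day. On day 0, 245 of the 3694 open windows had calls in both treated libraries, and on day 1 it was 432 of 5924. The others rested on 1 library each. With 15 calls, a level of 60% at Epas1 had an interval from 32.3 to 83.7%. All intervals given here are exact Clopper-Pearson intervals of 95% and cover counting error only. They take calls as independent, though calls at neighbouring sites can come from the same reads, so they are too narrow where reads are shared.

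The median level of the open windows was 66.7% on each day. On day 0, 80 windows had every call methylated, and on day 1 it was 130. The windows that missed the 60% had pooled levels of 26.2% on day 0 and 27.8% on day 1. Many members sat near the edge. The windows just inside with most calls were those of Esrrg (60% of 45 calls) and Gm26501 (60% of 45) on day 0 and of Sec14l1 (60% of 45) and Nhlh1 (60% of 40) on day 1. Just outside were 1 window inside Prkag2 on day 0 (59.5% of 42 calls), and near Gm9700 (59.7% of 268) and Gm33823 (59.5% of 42) on day 1. Windows with few sites passed more often: 5.29% of the windows with 4 sites and 2.36% of those with 12 or more on day 0, and 6.25% and 1.59% on day 1.

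Where both treated libraries of a day covered a window well, they agreed on being open in about as many windows as not. With 4 or more sites in each library there were 40 open windows on day 0 and 73 on day 1. Both libraries reached 60% on their own in 21 and 39 of these, and 1 library alone did in 19 and 34. The pooled level of the same libraries chose these windows, so at least 1 of them had to reach 60%. The counts are therefore descriptions and no test of agreement.

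Measured on the day that did not choose them, open windows were still higher than the other windows. Windows chosen on day 0 stood at 49.4% and 50.2% in the day 1 treated libraries, against 30.2% and 30.3% in the windows that had not passed. Windows chosen on day 1 stood at 47.2% and 48.9% in the day 0 treated libraries, against 27.7% and 27.6%. In each of the 4 libraries the open windows were higher and the groups did not overlap. The mean difference was 19.99 percentage points (19.5 ± 0.521 at day 1, 20.4 ± 1.26 at day 0; SD, n = 2 libraries each). An exact two-sided permutation test over the 4 libraries gave p = 0.125, the smallest that 4 differences allow, so it cannot pass 0.05.

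A few deeply covered windows carried much of that difference. Windows with more than 10 reads per site numbered 13 of the open ones on day 0 and 24 on day 1. They held 13.2% and 14.6% of the calls of the day that chose them. The difference rests on calls of the other day, where these shares do not apply. Of the calls that day 0 windows had on day 1, a single window inside Gm36876 held 1327 of 9552 in replicate 1. In replicate 2 it held 1322 of 9395. With sites of at most 10 reads, a limit chosen after this was seen, the day 0 windows had 37.3% ± 0.784 on day 1 (others 29.4% ± 0.0302). The day 1 windows had 34.7% ± 0.636 on day 0 (others 27.3% ± 0.276; SD, n = 2). The difference was then 7.65 points, with the open windows higher in 4 of 4 libraries (exact permutation p = 0.125). When each site counted once whatever its depth, it was 8.72 points (p = 0.125 by the same exact test). The plot of levels by library shows the pooled values.

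**Figure D1:**
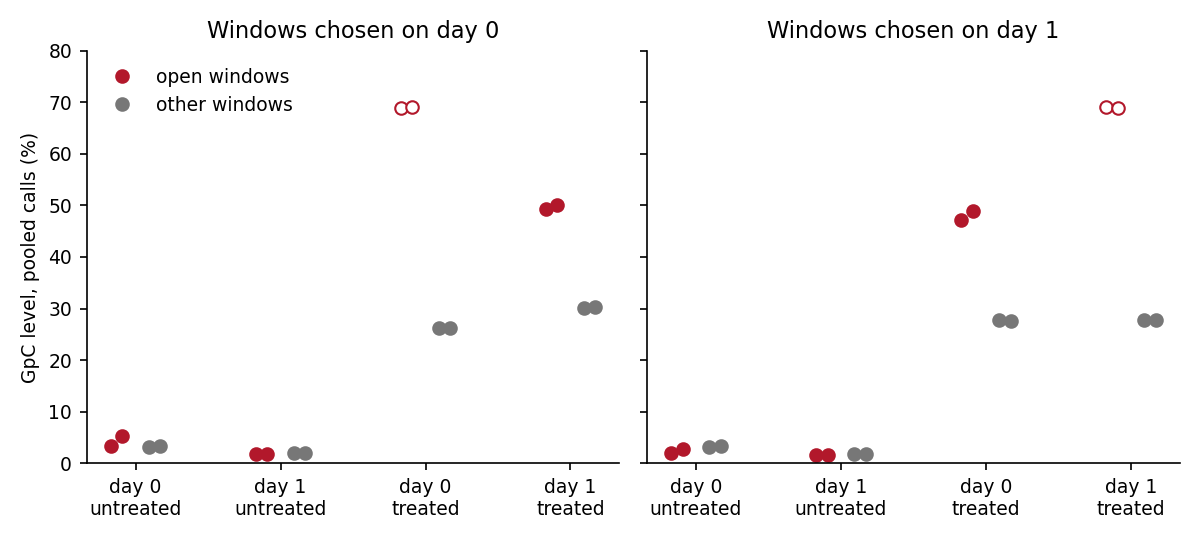
Pooled GpC level (%) of each library in the windows open on day 0 (left) or day 1 (right) and in the other windows with enough sites, 2 points per group. Hollow points are the levels that chose the open windows, and the grey points of that same day were selected for being under 60%; on the other day the open windows lie between 47.2% and 50.2% and the others between 27.6% and 30.3%, while every untreated point lies at or under 5.23%.

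Window by window, most did not pass again. Of the 371 open day 0 windows with 4 or more sites on day 1, 51 were open there too (13.7%, interval 10.4 to 17.7%). Among the windows with enough sites on both days the share open on day 1 was 5.83%, and among those not open on day 0 it was 5.44%. In the reverse direction 51 of 466 windows repeated (10.9%, interval 8.26 to 14.1%), against 4.64% of all and 4.25% of those not open on day 1. The median level on the other day was 33.3% for day 0 windows (27.8% for the others) and 29.8% for day 1 windows (26.3% for the others). On the other day 164 of the 371 (44.2%) and 233 of the 466 (50%) were under 30%, against 54.6% and 59.6% of the others. With at most 10 reads per site, 39 of 358 repeated on day 1 (10.9%, where 5.72% of all such windows were open) and 39 of 441 on day 0 (8.84%, where 4.64% were). These shares come from the same libraries as the difference above and are not separate support for it.

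The library-by-library count showed the same order. In the day 1 treated libraries 17.7% and 15.9% of the day 0 windows with enough sites there reached 60%, against 5.91% and 5.28% of the others. In the day 0 treated libraries it was 14.5% and 11.98% of the day 1 windows, against 4.53% and 3.94%. The mean difference of 10.1 points had the same sign in 4 of 4 libraries (exact permutation p = 0.125).

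Windows with more sites held their level better on the other day. Counting each site once, day 0 windows with 4 sites had 33.7% ± 0.0567 on day 1, and those with 12 or more had 60.6% ± 1.36 (SD, n = 2). For day 1 windows measured on day 0 the values were 30.2% ± 0.0195 and 58.0% ± 1.69. Leaving out windows over 10 reads per site lowered the last class to 45.5% ± 7.04 (24 windows) and 51.7% ± 12.5 (13 windows). With 8 or more sites on both days, 13 of 27 day 0 windows and 13 of 43 day 1 windows were open again, where 3.77% and 2.37% of all such windows were open on the measured day. At no more than 10 reads per site that left 3 of 16 and 3 of 22, against 2.38% and 1.73%. The pattern by number of sites thus rested in part on the deep windows.

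**Figure D2:**
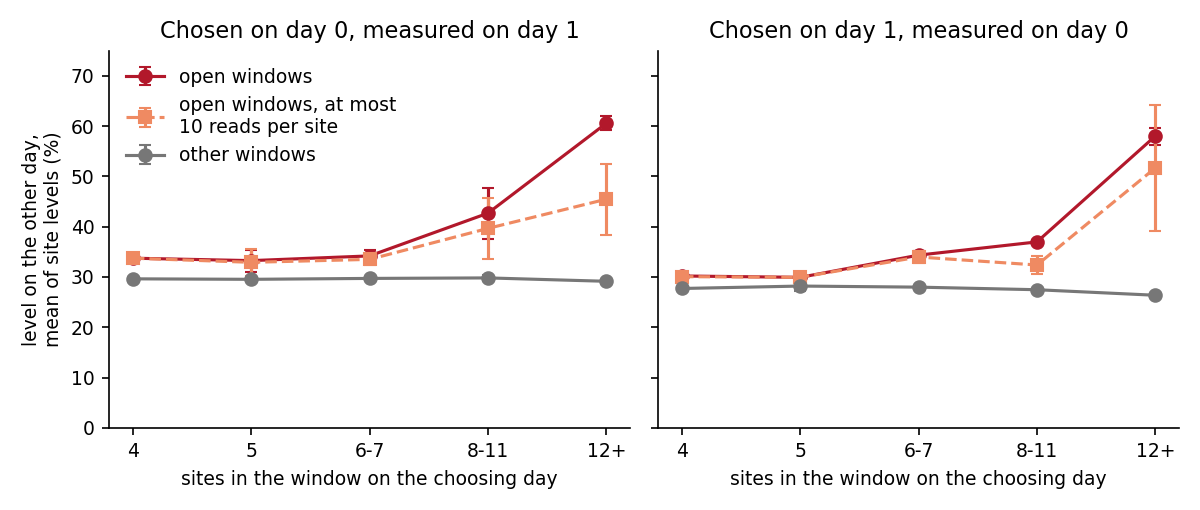
Level on the day that did not choose the window (mean of site levels, %), by the number of sites on the choosing day; points are means of 2 libraries and bars their SD. The open windows rise from 33.7% to 60.6% (left) and from 30.2% to 58.0% (right), those of at most 10 reads per site end at 45.5% and 51.7%, and the other windows stay between 26.4% and 29.8%.

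Open windows were also higher in the replicate that had not chosen them. For this, windows were chosen in 1 library alone and measured in the other library of that day. Those chosen on day 0 stood at 51.9% ± 3.80 (others 28.3% ± 0.339) and those chosen on day 1 at 54.6% ± 2.08 (others 29.6% ± 0.194; SD, n = 2). The mean difference of 24.3 points had 1 sign in 4 of 4 libraries (exact permutation p = 0.125). It was 10.2 points with at most 10 reads per site and 12.3 points when each site counted once.

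The windows open on both days with the highest lower limits were of distinct kinds. The top one lay inside A330093E20Rik, nearest to Gm26262 (chr18:45914001-45914500). It had 93.2% of 59 calls on day 0 (interval 83.5 to 98.1%) and 100% of 37 on day 1 (90.5 to 100%), with no untreated call. Several others had many reads per site, a low untreated level and similar values in all treated libraries. Near Cd209a, which encodes a C-type lectin of dendritic cells, the 4 treated libraries had 76.1%, 74.4%, 77.1% and 64.4%, and the untreated level was 0.318% on day 0 and 4.02% on day 1. A window near Gm7612 had 69.2%, 60.9%, 67.5% and 68.1%, with 2.74% and 2.11% untreated. A window inside Gm36264 had 63.7%, 65.5%, 68.1% and 72.1%, with 2.53% and 1.92% untreated. In these 3 windows every treated library was above 60% and every untreated one under 6%. The treated calls of both days chose these windows, so their high treated levels are descriptions and no test. Whether such deep windows hold sequence present in several copies was not tested.

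Inside Gm36876 there were 2 adjacent windows of this kind (chr11:109011501-109012500), with 61.4% of 3203 calls on day 0 and 67.9% of 2979 on day 1 over both. In the one with more calls, the treated libraries of day 0 were at 58.1% and 63.5%. Windows near Gm30821 (66.9% and 71.4%) and LOC115487525 (62.0% and 67.7%) had untreated levels between 2.19% and 4.73%.

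At most 10 reads per site, other windows passed on both days. That group was added after the deep windows were seen, and 8 of its 10 windows are described next, beside those at Gm26262 and Kdm2b above. One lay inside Prkce, which encodes a protein kinase C, at 100% of 12 calls on day 0 and 83.3% of 18 on day 1, with 0% of 32 untreated calls on day 1. One lay inside Plec, which encodes the cytolinker plectin, at 88.9% of 18 and 79.2% of 24 calls, with 9.52% of 21 untreated calls on day 1. The window inside Apc, which encodes a scaffold of the β-catenin destruction complex, had 79.2% of 24 calls and 84.6% of 39. Each of these 3 had calls in no more than 1 library on day 0.

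The window inside Plxna1, a semaphorin receptor, had 77.8% of 18 calls on day 0 and 71.0% of 31 on day 1. It was the one among these with untreated calls on both days, 57 and 12, and none was methylated. Shtn1, which acts in neuronal polarity, had 88.9% of 18 and 84.6% of 13 calls. Hk2, which encodes a hexokinase, the first enzyme of glycolysis, had 83.3% of 12 and 88.9% of 18. Near Gm31546 the levels were 69.2% of 39 and 100% of 12, and near 1700054K19Rik 66.7% of 30 and 66.7% of 27. The intervals drawn in the plot of these 10 windows overlap between the days in every one. The windows were chosen for being open on both days, which makes such overlap likely. The overlap therefore cannot show whether the days differ in them.

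**Figure D3:**
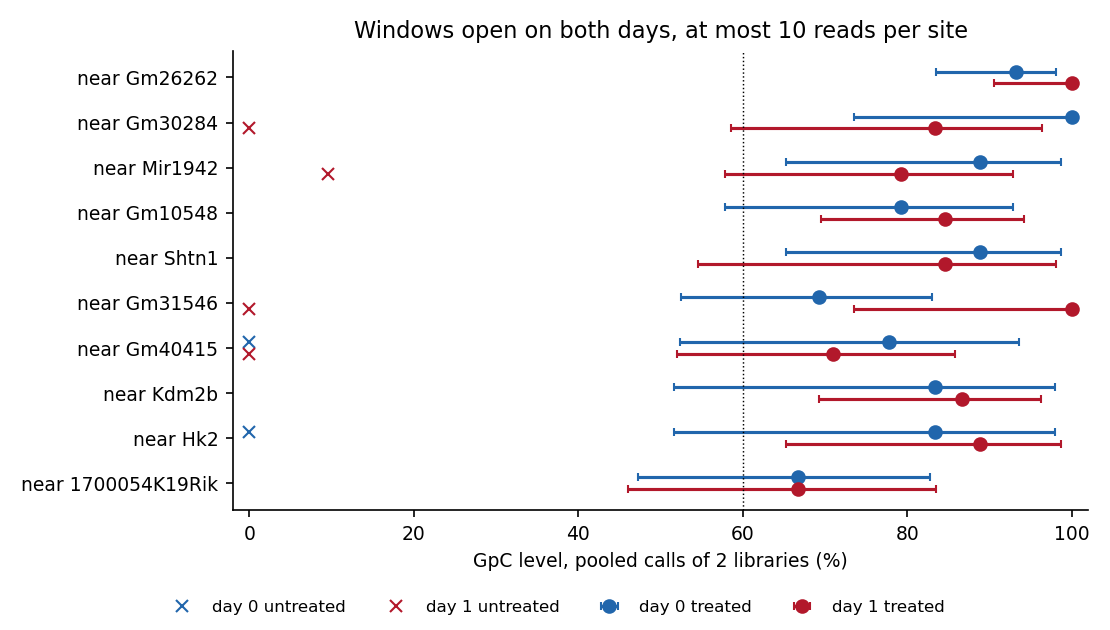
GpC level (%) on day 0 (blue) and day 1 (red) in the 10 windows open on both days with at most 10 reads per site and the highest lower limits, named by nearest gene; dots are pooled treated calls with exact 95% intervals and crosses are untreated levels where there were calls. The dotted line is the 60% of the rule, all treated points lie above it, and the highest cross is at 9.52%.

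Other windows were open on 1 day and measured as closed on the other. Inside Oxr1, which protects against oxidative damage, the day 1 level was 94.4% of 36 calls and the day 0 level 0% of 17. Inside Arl15, which encodes a small GTPase of the ARF family, it was 100% of 24 calls on day 1 and 16.7% of 18 on day 0. Inside Tusc3, an oligosaccharyltransferase subunit, it was 100% of 12 on day 1 and 27.4% of 84 on day 0. The counting intervals of the days do not overlap in these 3 windows, but they take calls from the same reads as independent. These windows were chosen for a high day 1 level, each rests on 1 or 2 libraries a day, and no test is given.

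Unc5b, a netrin receptor found on endothelial tip cells, had a window at 95.2% of 21 calls on day 1 and 50% of 18 on day 0. In the day 0 direction, the window at Ubtf, an RNA polymerase I factor, had 77.8% and 92.6% in the treated libraries of day 0 and 23.3% of 30 calls on day 1. A window nearest to Gm5051 had 100% of 15 calls on day 0 and 13.3% of 15 on day 1. One inside Wnt2, which encodes a secreted Wnt ligand, had 100% of 12 calls on day 0 and 50% of 24 on day 1. One in Zfp469 had 94.7% of 19 and 58.3% of 12. Near Gm23852, the window had calls in all 8 libraries: 60% and 42.6% treated on day 0, 91.7% and 88.6% on day 1, and at most 6.25% untreated in any library. The treated libraries of the days do not overlap there, but the window was chosen for its high day 1 level. The other windows of this paragraph were likewise chosen for a high level on 1 of the days, and no test is given.

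Annotated starts were more frequent among open windows than among the others. A start here is a RefSeq start inside a gene whose outer ends lie farther away, that is, an alternative start within the gene. On day 0, 42 of the 216 windows that overlapped a start region were open (19.4%), against 4.93% of the windows without one. On day 1 it was 37 of 247 (14.98%), against 5.37%. With the rule applied to each treated library alone, starts made up 1.14% ± 0.153 of open and 0.243% ± 0.0235 of other windows on day 0. On day 1 they made up 0.614% ± 0.164 and 0.209% ± 0.0210 (SD, n = 2). The mean difference of 0.652 points had the same sign in 4 of 4 libraries (exact permutation p = 0.125, the smallest possible). This comparison was added after the starts had been counted. With at most 10 reads per site it was 0.655 points.

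**Figure D4:**
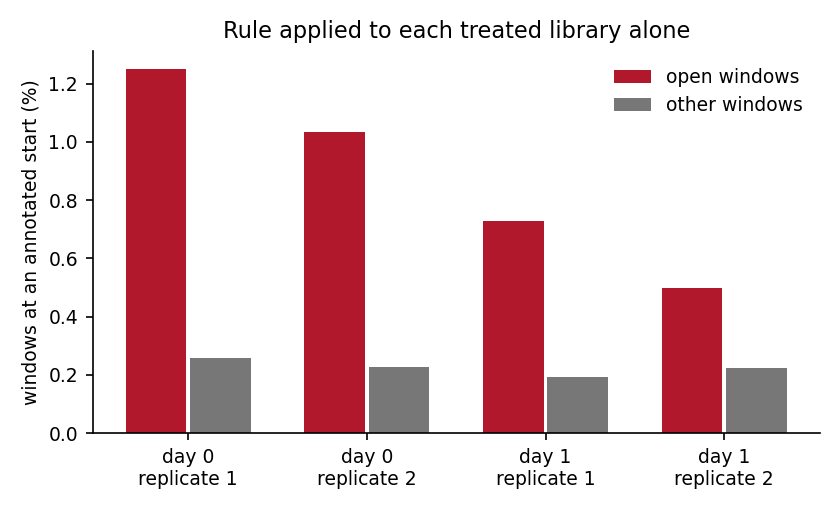
Share (%) of windows that overlap an annotated transcription start, among open windows (red) and other windows (grey), with the rule applied to each treated library alone. The red bar is the higher in all 4 libraries, with means of 1.14% against 0.243% on day 0 and 0.614% against 0.209% on day 1.

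The start regions in open windows differed in base content from those in the other windows. Their median GC content was 64.3% on day 0 and 61.3% on day 1, and their median number of CpG in 300 bases was 24 and 17. In start regions of the windows that were not open, the medians were 55.7% and 55% GC and 6 CpG on either day, and over all 32619 start regions 53% and 7. CCGGAA, searched on both strands, was in 9 of 49 start regions of open windows on day 0 (18.4%) and 8 of 41 on day 1 (19.5%). It was in 6.63% and 7.51% of those of the other windows and in 14.997% of all. TGANTCA was in 3 regions on each day (6.12% and 7.32%), against 9.94% and 9.39% of the others and 7.85% of all. Matches of these 2 patterns cannot overlap each other, and the counts are descriptions of small sets.

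Some open starts of day 0 had every call methylated. Hif1a, the hypoxia-inducible factor, had 100% of 15 calls, and 11.1% of 9 untreated calls at 3 sites on day 0. Sesn1, a stress-induced regulator of growth signalling, had 100% of 12. Adipor2, an adiponectin receptor, had 93.8% of 16. Stn1, a telomere-capping protein, had 100% and 86.7% in the treated libraries of day 0. Net1, an exchange factor for RhoA, had 95.2% of 21 calls, and 88.9% of 9 calls at 3 sites on day 1. On day 1, Stag1, a cohesin subunit, had 100% of 18 calls and 0% of 31 untreated calls on day 0. Dab2, an endocytic adaptor, had 100% of 20 calls and Hdac4, a class IIa histone deacetylase, 86.7% of 15. Hdac4 had 41.8% of 67 calls on day 0, and Dab2 83.3% of 6. These starts were named after their values were seen.

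Few of the 42 and 37 open starts could be measured on the other day. Of the 7 day 0 starts with 4 or more sites on day 1, 3 were open again, those of Galk2, Kdm2b and Ablim1. Of the 4 day 1 starts with 4 or more sites on day 0, the same 3 were open and Hdac4 was not. Galk2, a sugar kinase, had 60% of 15 calls and 82.1% of 28. Ablim1, an actin-binding LIM protein, had 61.1% of 18 and 66.7% of 12. Untreated levels at open starts were at most 4.17% on day 0 (8 windows with 4 or more sites) and 5.06% on day 1 (7 windows).

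Most open windows lay inside genes, and only slightly more often than the others. On day 0, 60.9% of the open and 59.0% of the other windows were inside a gene body, and on day 1 60.8% and 59.1%. The mean difference over the libraries was 1.83 points, with the same sign in 4 of 4 (exact permutation p = 0.125). The annotation at hand gives no exons, so introns and exons were not told apart. The median distance to the nearest gene end was 18.5 kb against 19.3 kb on day 0 and 18.3 kb against 19.2 kb on day 1. In log2 distance, open windows were nearer by a mean of 0.07 (exact permutation p = 0.125). Windows more than 100 kb from any gene end made up 6.09% and 6.16% of the open ones, against 7.42% and 7.38% of the others.

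Open windows were spread over 3221 nearest genes on day 0 and 4778 on day 1, of which 2832 and 3913 had a single one. No gene had more than 7. The counts by gene are read against the shares of all windows, 4.97% on day 0 and 5.39% on day 1. On day 1, Epas1 had most, with 7 of its 36 windows open (19.4%) against 0 of 18 on day 0. Epas1 encodes HIF-2α, a hypoxia factor prominent in endothelial cells. Its 7 windows had between 60% and 100% of 12 to 18 calls, and none had a treated call on day 0, so the days cannot be compared at them. In the 2 of these windows with untreated calls on day 1, none was methylated. Rxra, a nuclear receptor for retinoids, had 6 of 33 windows open on day 1 and 1 of 20 on day 0, and 1 was open on both days, with 71.9% of 32 and 66.7% of 21 calls. Another Rxra window had 60% of 15 calls on day 1 and 13.8% of 29 on day 0. On day 0, Eefsec, the selenocysteine elongation factor, had 6 of 38 windows open and 3 of 75 on day 1. Nsmce2, a SUMO ligase of the SMC5/6 complex, had 5 of 24 and 2 of 27. Tbc1d22a had 6 of 101 on day 0 (5.94%, where 4.97% of all windows were open) and 2 of 92 on day 1. These genes were chosen for their counts, and a gene's counts on the 2 days come mostly from different windows.

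Among the 30 endothelial and blood transcription factors, the class to which Etv2 belongs, none of 71 windows was open on day 0. Over all windows the share was 4.97%, and the count of 0 was not tested against it. On day 1, 9 of 94 windows of this class were open (9.57%, where 5.39% of all windows were). They were nearest to Ets1, Fli1, Erg and Etv6, which are ETS factors, to the blood factor Gata2, and to Mef2c. Fli1 had 3 of them, of which 2 were adjacent, with 71.4% of 21 calls and 91.7% of 12. Inside Ets1 1 window had 76.7% of 30 calls on day 1, and another 73.3% of 15. The Mef2c window had 100% of 15 calls, the Gata2 window 72.2% of 18 and the Erg window 66.7% of 12. The Etv6 window alone had treated calls on day 0, 33.3% of 9 against 66.7% of 12 on day 1. None of the 9 had 4 sites on day 0, so the counts do not show that any window opened. The rule for naming gave the Ets1 window with 30 calls and the Fli1 window with 21. The other windows here were named after their values were seen.

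The fibroblast and matrix genes had 1 of 131 windows open on day 0 (0.763%, where 4.97% of all windows were) and 14 of 213 on day 1 (6.57%, where 5.39% were). In Col6a3, a collagen VI chain, 1 window had 75.9% of 29 calls on day 0 and a different one 66.7% of 27 on day 1. Timp3, an inhibitor of metalloproteinases, was nearest to a day 1 window with 66.7% of 21 calls. The endothelial genes had 5 of 110 (4.55%) and 12 of 175 (6.86%), near those shares of all windows on either day. The Notch receptor Notch1 had 86.7% of 15 calls on day 1, Efnb2, an arterial ephrin ligand, 80% of 15, and on day 0 Notch4 had 61.5% of 26. No difference between the days was tested for these lists.

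The counts of the other lists are read against the same shares of all windows, 4.97% on day 0 and 5.39% on day 1. The mesenchymal and AP-1 factors had 12 of 161 (7.45%) and 13 of 201 (6.47%). Prrx2, a mesenchymal homeobox factor, had a window at 88.0% of 25 calls on day 0 and 44.4% of 9 on day 1. Nfix, a nuclear factor I protein, had 71.4% of 21 on day 1 and 37.0% of 27 on day 0. Chromatin remodelling genes had 5 of 103 (4.85%) and 3 of 132 (2.27%), with Smarcc1, a BAF subunit, at 76.2% of 21 calls on day 0. Pluripotency genes had 1 of 40 (2.50%) and 4 of 45 (8.89%), neural genes 6 of 142 (4.23%) and 11 of 269 (4.09%), and muscle and heart genes 3 of 57 (5.26%) and 6 of 87 (6.90%). No list had a window open on both days, but no list had more than 2 open windows with 4 or more sites on the other day, so little can be read from it.

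Beyond 500 bp from an open window, treated levels were close to those around the other windows. In the 500 bp on either side, treated levels of the choosing day were 39.7% ± 1.46 beside day 0 windows (others 28.3% ± 0.00245) and 40.1% ± 0.692 beside day 1 windows (others 29.7% ± 0.156; SD, n = 2). Counting each site once, they were 33.7% ± 0.834 against 27.5% ± 0.156, and 33.0% ± 0.716 against 29.4% ± 0.166. These sites can lie on the same fragments as the window. Beyond 500 bp and up to 2000 bp the mean difference was 0.519 points, with the same sign in 4 of 4 libraries (exact permutation p = 0.125). It was 28.7 points when only the ends of protein-coding genes were kept away from, a setting that lets windows near the ends of other genes in. Of the neighbouring windows with enough sites, 9.81% were open beside an open day 0 window and 4.49% beside another. On day 1 it was 9.14% and 5.02%. There were 23 pairs of adjacent open windows on day 0 and 44 on day 1, and no longer run. The pair with most distinct sites among the less deep ones lay near Gm23072 on day 0, at 85.6% of 111 calls over 37 sites.

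**Figure D5:**
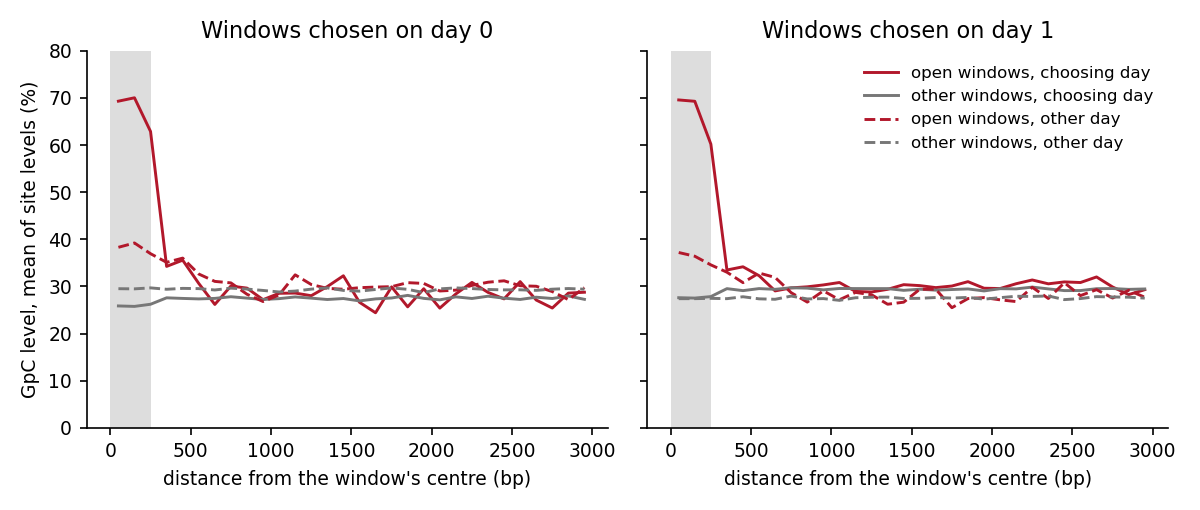
Treated GpC level (mean of site levels, %, mean of 2 libraries) by distance from the window's centre in 100 bp steps, either side; the grey band is the window itself, whose solid red level chose it. Outside the window the open windows come down to the level of the other windows within 1000 bp, and on the other day (dashed) they stand at 38.6% and 36.6% inside it over a level of 29.5% and 27.4%.

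Without the enzyme, open windows had low levels. Day 0 windows had 3.30% and 5.23% of untreated calls methylated on day 0, against 3.09% and 3.32% in the other windows. Day 1 windows had 1.65% and 1.54% on day 1, against 1.86% and 1.83%. The mean difference was 0.403 points, with 2 of 4 libraries on either side of 0 (exact permutation p = 0.75). Depth moved this value: it was 1.24 points with at most 20 reads per site, 1.55 with at most 10 and 1.52 when each site counted once. In these 3 settings the open windows were higher in 4 of 4 libraries (exact permutation p = 0.125 each, the smallest possible). Windows open on either day had 3.08% ± 0.993 without enzyme on day 0 and 1.56% ± 0.0329 on day 1 (SD, n = 2), a difference of -1.52 points that the exact permutation test could not place (p = 0.333, the smallest possible). On the other day, treated exceeded untreated libraries in these windows by 46.9 points (48.1% and 49.8% against 2.35% and 1.76%; exact permutation p = 0.0556, the smallest possible).

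Most open windows with 4 or more untreated sites had no methylated untreated call, 202 of 274 on day 0 (73.7%) and 571 of 711 on day 1 (80.3%). Of the other windows 70.7% and 84.0% had none. A small group on day 0 did not follow. In 8 of 274 open windows at least 50% of the untreated calls were methylated, where 5 of 5418 other windows were that high. Near Fmnl3, a formin, the untreated libraries of day 0 had 90.5% of 21 and 81.1% of 53 calls, and the treated ones 77.3% of 44 and 46.7% of 15. Inside Tmem135, nearest to the Wnt receptor Fzd4, they had 67.5% of 40 and 70.4% of 27, with 66.7% of 15 calls in treated replicate 2 alone. In Tex2 and 9130204K15Rik, untreated replicate 2 alone had calls, 94.9% of 39 and 100% of 36. The treated libraries of day 0 were far apart at Tex2, with 8.33% of 12 calls in replicate 1 and 100% of 36 in replicate 2. At 9130204K15Rik treated replicate 1 alone had calls, 82.4% of 51. In these 4 windows the pooled level was high without as well as with the enzyme, at Tex2 through replicate 2 alone.

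A window inside Clasp2, nearest to Gm39439, was high in every group. It had 84.2% and 86.7% treated and 57.1% and 78.6% untreated on day 0 and day 1, with 57, 15, 21 and 28 calls. It was the only open day 1 window with 4 or more untreated sites of day 1 at or above 50%. The called cytosines within start regions were all GpC not followed by G, so there the files hold no CpG. Whether the untreated calls are native methylation or unconverted cytosines was not tested. Without the windows at or above 50% untreated (13 of all windows on day 0 and 3 on day 1), open windows differed from the others by between -0.346 and 0.0941 points in the 4 untreated libraries, and by 19.2 to 21.3 points in the treated libraries of the other day.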

How the data were processed

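Each library has a deposited file of single cytosines on build mm10 per the submitters' processing notes. The authors gave each cytosine a fraction of methylated reads and a count of reads; both units were read from the values, since the deposited columns have no header. For the aligner, the caller and the use of UMIs, the entry is: not given in the sources used here. Methylated reads were taken as fraction times count, whole within rounding at 100% of the sites, and every site had at least 3 reads. Gene ends are both ends of 47038 RefSeq genes of all types (GRCm38.p6), and start regions run from 250 bp before to 50 bp after 32619 annotated starts.

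Windows were cut on a fixed grid of 500 bp on 19 autosomes. Levels are pooled methylated calls over all calls. The tests are exact two-sided permutation tests over libraries, with a threshold of 0.05 that 4 differences (smallest p 0.125) or 2 against 2 libraries (0.333) cannot pass. Open windows were compared with all other windows that had enough sites. The windows and gene lists were chosen with earlier results of these data known. Named are the 10 windows a day with the highest lower limit that also had 4 sites on the other day, the 10 open on both days with the highest lower limits, the longest runs, those nearest 60%, the 5 genes with most open windows a day, and up to 2 windows per gene list. The steps were tested on simulated data in which every call was drawn independently, so calls that share reads were not covered. Python 3.11.15, numpy 2.4.6, pandas 2.3.3 and scipy 1.17.1 were used. The sequences of windows outside start regions were not analysed here.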

Additional observations from a re-analysis of the deposited data

Results flagged for a closer look

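Untreated methylation in open windows differed in sign between the days: relative to the other windows it was 1.06 points higher on day 0 and, on day 1, the difference was -0.252 points. Both untreated libraries of day 0 were on one side of 0 and both of day 1 on the other. The difference between the days was not tested, and the opposite signs hold for pooled calls. With at most 20 reads per site the differences were 2.18 and 0.301 points on day 0 and day 1, with at most 10 reads 2.73 and 0.372, and with each site counted once 2.82 and 0.218.

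The X chromosome was outside the rule, and its treated level was also far above the untreated one. Its windows far from gene ends had a mean treated level of 27.7% on day 0 and 29.1% on day 1. No untreated library was above 1.56% there. On day 0, 22 of 545 X windows reached 60% (4.04%, against 4.97% of the autosomal ones). On day 1 it was 44 of 699 (6.29%, against 5.39%).

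Autosomal sites of more than 100 reads far from gene ends, which the rule leaves out, had mean treated levels of 49.6% on day 0 and 50.3% on day 1. They were also high without the enzyme, between 29.8% and 32.6% in the 4 untreated libraries.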

How the results depend on the processing

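Of 192 recomputed values, 173 kept their direction (counts: within 1.5 times), 14 counts of windows moved and 5 differences changed sign. No test could pass the threshold in any setting, so the side of the threshold could not change and was no check of stability. The number of open windows followed the rule: 9191 on day 0 and 15390 on day 1 at a level of 50%, 1324 and 2084 at 70%, 364 and 567 with 8 sites, 1723 and 2759 at 20 kb from gene ends, and 494 and 1347 where untreated calls under 10% were required. With 1 treated library left out it was 1919 to 1934 on day 0 and 3015 to 3213 on day 1. The difference on the other day stayed above 0 in every setting, from 7.65 to 31.7 points.

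The untreated difference was not stable: it was -12.6 points with no maximum of reads per site and -0.434 points with the ends of protein-coding genes only, but 1.24 points with at most 20 reads per site, 1.55 with at most 10, 1.52 with each site counted once and 1.51 at a level of 70%. With 1 library left out it ran from -0.0979 to 0.636 points; it was -0.0979 without day 0 untreated replicate 2 and -0.0668 without day 0 treated replicate 1. The difference at 500 to 2000 bp was -5.73 points with no maximum of reads and 28.7 points with the ends of protein-coding genes only. The causes were not tested. With the replicate number as a block (replicate block), the untreated difference between the days was -1.52 points as before, with p = 0.5 by the exact permutation test, the smallest that 2 pairs allow. Treated against untreated it was 46.9 points (exact permutation p = 0.125). Neither could pass the threshold with or without the block, and the labels give no shared source for equal numbers. The depth of 3 reads at most sites limits single windows.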
